A study of Homo sapiens with 56 samples.

Results

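The genes described here are the replication-dependent histone genes, the multicopy genes that supply most of the histone protein packed onto newly copied DNA. Members were the rows whose gene symbol is H1-1 to H1-6, or H2AC, H2BC, H3C or H4C followed by a number, which gave 64 of the 21596 rows of the expression table. They comprise 5 linker histone H1 genes, 16 H2A, 16 H2B, 13 H3 and 14 H4 genes. The data are 56 RNA-seq libraries from 4 mantle cell lymphoma cell lines, of which 15 are of MINO-P, 15 of JEKO-1, 13 of MINO-VR and 13 of Z138, made with a poly-A enrichment kit and sequenced as paired 150-base reads. The suffixes P and VR are not spelled out.

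Untreated cells (CON, 5 libraries) were compared with cells given agents the labels call CLF (6), BTZ (6), IBR (11), YM155 (4) and S63845 (6). The combinations IBR_CLF (8), BTZ_CLF (4), BTZ_YM155 (2) and IBR_YM155 (2) were compared with their single agents, and BTZ_S63845 (1) and IBR_S63845 (1) are in no treatment comparison. YM155 is a suppressant of survivin (BIRC5) and S63845 an inhibitor of MCL-1. The design text also names a proteasome inhibitor and a BTK inhibitor, without tying either to a code, and no dose or duration is given. The libraries fall into 37 groups of line and treatment, of which 22 hold 1 library, 11 hold 2 and 4 hold 3. Nothing in the labels says that libraries of a group came from separate cultures, so p-values measure only the spread between these libraries, which may be technical.

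Replication-dependent histone genes lie in clusters, mostly lack introns and are transcribed in S phase, when DNA is copied. Their mRNA is the one class of animal mRNA that normally carries no poly-A tail: it ends in a short conserved stem-loop bound by SLBP, the stem-loop binding protein, and is cut by a complex that includes the U7 small nuclear RNA. Some of these genes also give longer transcripts with a poly-A tail, mainly in cells that have stopped dividing or are differentiating, and a poly-A library captures that form far better. A level measured here therefore mixes the amount of histone mRNA with the part of it that was polyadenylated or carried through enrichment, and fewer cells in S phase and less RNA per cell cannot be told apart in bulk samples.

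The stem-loop is printed for 8 members named below that hold a match, because it is the element that sets these transcripts apart. A 16-base pattern (GG, any 2 bases, CTTTT, any base, AG, any 2 bases, CC), searched on the sense strand of GENCODE release 29 transcripts, was present in 27 of the 60 members matched by gene identifier and in 52 of 19684 protein-coding genes (0.264%). In the sequences, written 5′ to 3′ as DNA, the capitals are the stem-loop.
H2AC6: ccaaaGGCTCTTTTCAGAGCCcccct
H2BC4: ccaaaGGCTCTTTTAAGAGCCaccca
H2BC5: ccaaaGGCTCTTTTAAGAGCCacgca
H2BC21: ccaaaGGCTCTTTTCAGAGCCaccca
H2BC9: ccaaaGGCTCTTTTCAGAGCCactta
H4C8: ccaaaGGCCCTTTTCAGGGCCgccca
H4C14: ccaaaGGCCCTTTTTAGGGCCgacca
H3C8: aaaaaGGCTCTTTTAAGAGCCgccta
The printed H2A, H2B and H3 genes had a GGCTC stem and the printed H4 genes a GGCCC stem. Many members without a match are annotated in that release only as far as the stop codon, so no match says only that the letters are not in the annotated transcript.

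Of the 64 members, 51 lie on chromosome 6, 12 on chromosome 1 and 1, H4C16, on chromosome 12 (hg38 coordinates in the expression table). The chromosome 6 members form a stretch of 30 genes from 26020451 to 26285639 and a stretch of 21 genes from 27122657 to 27893892, which held 45.3% and 33.1% of the members' summed mean level. H2A and H2B genes often sit head to head. Among members with a promoter in the RefSeq table, 9 such pairs had at most 1000 bases between their starts, from 193 bases for H2AC15 and H2BC15 to 247 bases for H2AC11 and H2BC11. The 245 bases between H2AC6 and H2BC4 are printed because both genes recur in the results (chr6:26123927-26124171, GRCh38.p14, plus strand, H2AC6 starting after the last base). H2BC12, the most abundant member, is shown by the 120 bases before its start (chr6:27146859-27146978, GRCh38.p14, minus strand). Capitals mark the octamer ATTTGCAT, the CCAAT box and TATAAA, each in either direction.
H2AC6 and H2BC4: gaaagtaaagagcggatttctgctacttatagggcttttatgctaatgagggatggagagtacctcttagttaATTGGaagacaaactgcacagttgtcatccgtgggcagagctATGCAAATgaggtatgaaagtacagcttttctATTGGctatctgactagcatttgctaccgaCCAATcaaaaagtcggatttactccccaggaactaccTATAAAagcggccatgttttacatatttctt
H2BC12: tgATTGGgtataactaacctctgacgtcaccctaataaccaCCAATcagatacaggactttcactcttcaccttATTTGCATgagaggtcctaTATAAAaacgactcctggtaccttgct
Each window holds 1 octamer, the element that binds OCT1 at H2B promoters. Over 300-base promoter windows (250 bases before to 50 after the start, both strands), the octamer was found in 24 of 59 members (40.7%): in 13 of 16 H2B, 10 of 15 H2A, 1 of 11 H3, 0 of 5 H1 and 0 of 12 H4 genes, against 1.80% of 27305 promoters. The windows of the 9 head-to-head pairs overlap, so a shared site is counted for both genes. In each pair the 2 genes had the same octamer count, so the 24 are not separate sites. CCAAT was found in 84.7% of the members against 35.7% of all promoters, and in 3 of 12 H4 genes. TATAAA was found in 64.4% against 11.95%. A match is a description of letters and not a bound site.

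Levels are in CPM, a gene's reads scaled to a common library total, with the Chromosome M rows left out and each library rescaled to the same total. A few members carried most of the signal. H2BC12, an H2B gene, had a mean of 89.4 CPM and 20.1% of the members' summed level, followed by H2AC6 (57.8 CPM, 12.97%), H2BC5 (42.6 CPM, 9.55%), the linker histone gene H1-2 (40.9 CPM, 9.17%) and H2BC21 (18.9 CPM, 4.23%). These 5 genes made up 55.99% of the sum. All 5 are on a list of 6 members for which a polyadenylated form has been reported, the other being H2BC4. That list was chosen with earlier results of these data known, so the overlap is no independent evidence about polyadenylation. By annotation instead, 19 of the 60 matched members had a form extending past the stem-loop or stop codon with a polyA signal, among them H2AC6, H2BC4, H2BC5, H2BC21, H4C8, H2AC11, H2BC9 and H2BC11 but not H2BC12 or H1-2. Those 19 held 43.4% of the summed level, with a median mean level of 4.43 CPM against 1.67 CPM for the other 41. At the other end, 17 members had a mean under 1 CPM, and H1-6, a testis linker histone, and H2AC25 reached 1 CPM in 0 libraries.

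Per kilobase of the shortest annotated coding transcript, the highest member of each class was H2BC12 for H2B (235 CPM per kb), H1-2 for H1 (63.7), H2AC6 for H2A (39.5), H4C8 for H4 (35.9) and H3C6 for H3 (9.59). The class medians ran from 2.37 CPM per kb for H1 to 5.58 for H2A. The choice of transcript matters for H4C8 and H3C6, whose longest annotated forms would give 13.8 and 1.65 CPM per kb. Neither would then lead its class, since by longest form H4C14 has 30.7 and H3C10 6.13 CPM per kb. H2BC12 and H1-2 have 1 annotated coding transcript each, of 381 and 642 bases with no stem-loop match. Their spans in the expression table are 9559 and 1712 bases. A longer transcript would lower their values per kb, and the annotated forms counted above would miss it.

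**Figure D1:**
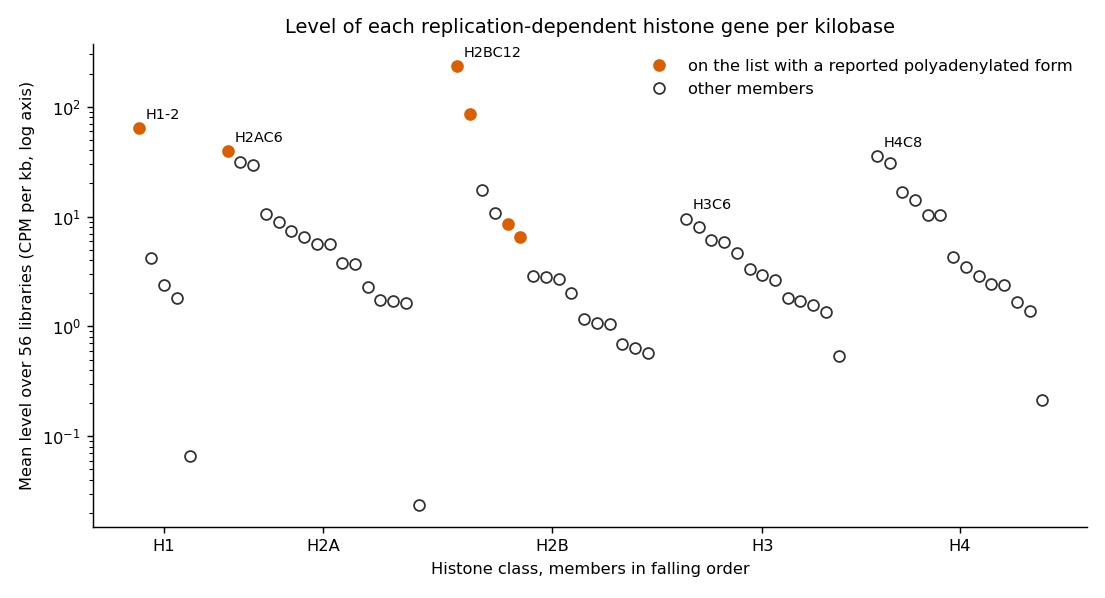
Mean level over 56 libraries in CPM per kb (log axis) of each of the 64 members, in falling order within its histone class. Filled points are the 6 members on the list with a reported polyadenylated form, and H2BC12 stands highest at 235 CPM per kb.

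Several members are near-identical copies. In 14 members fewer than 80% of the low values were whole multiples of the value of 1 read, whereas 40 members had only whole values. Among the 14 were H2AC18 and H2AC19, H4C14 and H4C15, and H3C14 and H3C15, which lie near each other on chromosome 1, with H4C11, H4C12, H3C4 and H2AC7 on chromosome 6. Of the members matched to release 29, 11 shared more than 50% of their 150-base windows with another gene. Fractions of a read are what dividing reads among copies would give, and the level of such a copy is uncertain. The 14 also include H2BC4 and H2BC6, which shared 0% of their 150-base windows with another gene, so not all of the 14 are such copies. The 14 members held 19.96% of the summed level. Annotated spans also overlap for 17 members, among them H2BC4 with H4C3, H1-6 and HFE, H2BC12 with H4C9, H2BC5 and H2BC6 with H2BC6-AS1, and H2AC4 with LINC02980. Whether the counting used strand is not given, so reads of such overlapping genes cannot be told apart.

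The libraries differed in ways that bear on non-polyadenylated RNA. Recovered depth ran from 5530439 to 21600140 reads (median 16005582), the Chromosome M share from 1.91% to 80.5% (median 6.69%), and the summed level of 16 short non-polyadenylated RNAs (7SK, RN7SK, U3 and others) from 0.569 to 56801 CPM (median 599). The 6 libraries above 40% were JEKO-1 libraries given BTZ, BTZ_CLF or IBR_CLF, at 59.1% to 80.5%. A count of 3 reads, the limit that a count of 0 allows, was worth 0.146 to 2.18 CPM. B-cell markers were high (MS4A1, the CD20 gene, 206 to 2039 CPM, and CCND1, cyclin D1, 207 to 3252 CPM), the T-cell genes CD3D, CD3E, CD3G and CD2 had a median of 0, and CD5, a surface marker often seen in mantle cell lymphoma, was at 0 in 10 libraries.

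The summed level of the 64 members ranged from 66.6 CPM in the MINO-P BTZ library to 1186 CPM in a JEKO-1 IBR_CLF library, with a median of 374. The 5 CON libraries had 218 CPM in MINO-P, 446 in MINO-VR, 295 in JEKO-1, and 375 and 114 in Z138. The 2 untreated Z138 libraries therefore differed more than 3-fold from each other, and counting error does not cover that gap (95% intervals of 365 to 385 and 109 to 119 CPM, counting error only). In the IBR libraries the sum was 664 to 753 CPM in MINO-P, 1027 to 1123 in MINO-VR, 339 to 432 in JEKO-1 and 656 to 696 in Z138, so in each line every IBR library lay above every CON library. In the BTZ libraries it was 66.6 CPM in MINO-P and 83.2 in MINO-VR, below the CON library of the same line, but 446 to 498 in JEKO-1 and 539 in Z138, above the CON libraries. The members outside the list of 6 made up 21.6% to 68.1% of the sum (median 42.1%).

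**Figure D2:**
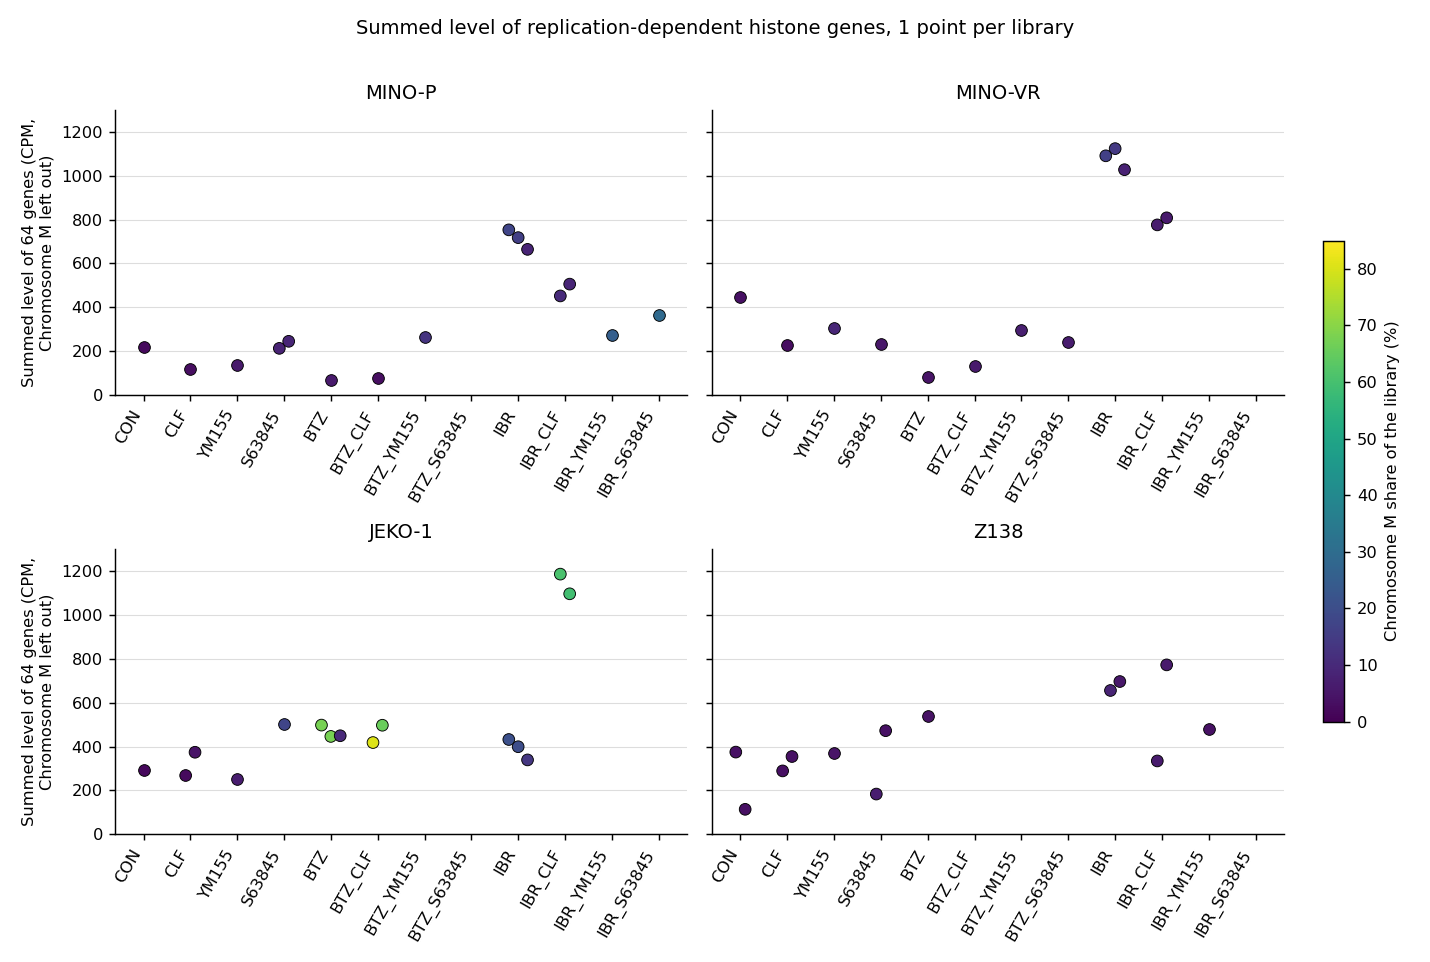
Summed level of the 64 members (CPM, Chromosome M left out) in each of the 56 libraries, by treatment within each cell line. Each point is 1 library and its colour is the Chromosome M share. The IBR libraries lie above the CON libraries in every line, and the 2 JEKO-1 IBR_CLF libraries, at 1096 and 1186 CPM, have Chromosome M shares of 59.1% and 60.7%.

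The first comparison asks how IBR alone differed from no treatment. A minority of the members, among them H2BC4, H4C8, H2AC15 and H3C13, were higher with IBR. Across 11 IBR and 5 CON libraries, with cell line and library series in the model, 10 of 62 tested members rose and 0 fell at an adjusted p under 0.05 (limma, Benjamini-Hochberg over 17203 genes), where 10.8% of all tested genes were called, 4.37% higher and 6.39% lower. The share of members that rose was 16.1%. The median log2 fold change was 0.70 for the members and -0.0018 for all genes, and 56 of 62 members had a fold change above 0. The 10 were H2AC6 and H2AC15 (H2A), H2BC4 (H2B), H3C1, H3C12, H3C13, H3C14 and H3C15 (H3), and H4C4 and H4C8 (H4). H3C14 and H3C15 are near-identical copies of uncertain level. Of the 19 members with an annotated longer form 18 were tested and 5 rose. No tested H1 gene passed, and H1-2 had a fold change of -0.73.

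H2BC4, an H2B gene on the list with a reported polyadenylated form, had 0.957 CPM in the MINO-P CON library, 1.26 in MINO-VR, 2.004 in JEKO-1, and 0.455 and 0.619 in Z138. The 11 IBR libraries ran from 2.62 to 15.8 CPM with a median of 7.55. The groups did not overlap, and the log2 fold change was 1.71 (SE 0.40, limma adjusted p = 0.0038). Its low values were whole reads in only 73.9% of cases.

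H4C8 was the most abundant H4 gene per kilobase of shortest transcript, though not of longest. It was at 1.93 CPM in the MINO-P CON library, 3.93 in MINO-VR, 5.63 in JEKO-1, and 4.29 and 1.55 in Z138. With IBR it ran from 8.02 to 56.2 CPM (median 27.0). The groups did not overlap, and the log2 fold change was 1.71 (SE 0.45, limma adjusted p = 0.010). The difference between line means on the log2 scale was 3.21 in MINO-P, 3.10 in MINO-VR and 3.04 in Z138, but 0.56 in JEKO-1. In H2BC4 and H4C8, then, every IBR library exceeded every CON library. How often this holds among all genes was not counted, so it is not read as a trait of the members.

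H2AC6, the most abundant H2A gene and the head-to-head neighbour of H2BC4 in the printed region, had 13.7 CPM in the MINO-P CON library, 58.6 in MINO-VR, 25.1 in JEKO-1, and 31.6 and 8.36 in Z138. IBR libraries ran from 49.6 to 248 CPM (median 108), overlapping the CON group only through the MINO-VR CON library. The log2 fold change was 1.17 (SE 0.38, limma adjusted p = 0.038). In each line the IBR mean was higher, by 2.89 in MINO-P, 1.91 in MINO-VR, 2.11 in Z138 and 1.01 in JEKO-1 on the log2 scale.

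H2AC15 rose from 1.37 ± 0.45 CPM (SD, n = 5) to 7.72 ± 5.67 CPM (SD, n = 11), with a log2 fold change of 1.70 and a limma adjusted p of 0.0092. Its head-to-head partner H2BC15 had a fold change of 0.61 (limma adjusted p = 0.32). H3C13, an H3 gene on chromosome 1, went from 0.652 ± 0.230 CPM (SD, n = 5) to 4.41 ± 2.61 CPM (SD, n = 11), a log2 fold change of 1.77 with a limma adjusted p of 0.018. One MINO-VR IBR library had 0.116 CPM of H3C13, below every CON library. H3C15 had 0.931 ± 0.667 CPM (SD, n = 5) in CON and 6.02 ± 6.39 CPM (SD, n = 11) in IBR, with 1 MINO-P IBR library at 0.

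Members that lead their class did not all pass. H2BC12 had 62.7 ± 41.3 CPM (SD, n = 5) in CON and 145 ± 61.0 CPM (SD, n = 11) in IBR, with a log2 fold change of 0.67 and a limma adjusted p of 0.24. Its line differences were 3.18 in MINO-P and 1.33 in Z138 but -0.05 in JEKO-1. H3C6 had a fold change of 0.96 (limma adjusted p = 0.14) and H1-2 one of -0.73 (limma adjusted p = 0.46).

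**Figure D3:**
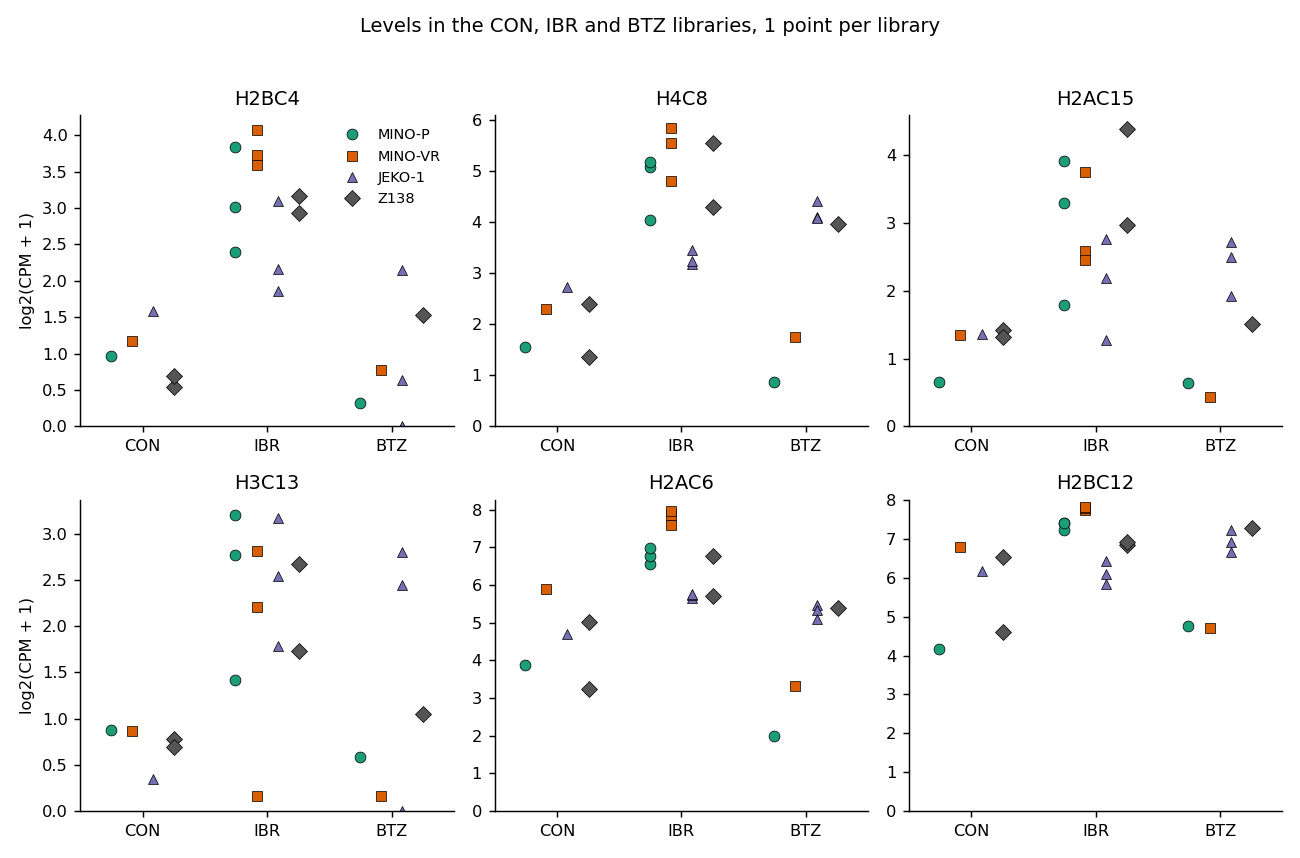
log2(CPM + 1) of 6 members in the CON (5), IBR (11) and BTZ (6) libraries, 1 point per library, with marker shape and colour for the cell line. For H2BC4 and H4C8 the IBR libraries do not overlap the CON libraries, whereas those of H2BC12 do.

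Genes of DNA replication and S phase went the other way. Of 24 such genes, 21 fell with IBR and 0 rose (list median -1.72), among them RRM2, a ribonucleotide reductase subunit (log2 fold change -3.55, SE 0.64, limma adjusted p = 0.00030), TYMS, thymidylate synthase (-2.77), MCM4, part of the replicative helicase (-2.29), and CCNE2, cyclin E2 (-2.14). Their summed level was 2323 to 7948 CPM in CON and 769 to 3835 in IBR. Of the 12 replication-independent histone genes, which encode variants and most of which give polyadenylated mRNA, 3 fell and 0 rose: H2AZ1 (-1.07), MACROH2A1 (-0.86) and H3-3A (-0.79), while H2AX had -0.92 with a limma adjusted p of 0.056. Of 7 histone chaperones, CHAF1B (-1.85), ASF1B (-1.61), CHAF1A (-1.12) and NASP (-1.09) fell, and ASF1A (0.68) rose. Of 14 genes of histone mRNA synthesis and 3′ end processing, 1 rose, LSM10 (0.92), a subunit of the U7 particle, and 0 fell. SLBP had -0.58 (limma adjusted p = 0.20) and NPAT, the coactivator of histone gene transcription, -0.35 (limma adjusted p = 0.49).

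Short non-polyadenylated RNAs moved with the same contrast. Of 13 tested, 3 rose: 7SK (5.34), SNORD3A (4.94) and RN7SK (4.83). The summed level of the 16 was 1.48 to 968 CPM in CON and 77.0 to 28619 CPM in IBR, and the Chromosome M share was 1.91% to 3.92% in CON and 5.58% to 20.9% in IBR. With the short RNA level as a covariate 0 members were called and their median fold change was 0.20, and with the Chromosome M share as a covariate 4 were called (median 0.44). The MINO-VR IBR library with the least short RNA had 77.0 CPM of it and a summed member level of 1027 CPM. Members outside the list of 6 made up 22.2% of that sum, the lowest share of any IBR library. That line's CON library had 896 CPM of short RNA and a sum of 446 CPM, with 29.5% outside the list. The part of the short RNA level in the members' change was not tested.

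The count depended on the libraries used. Leaving out Z138 left 0 called members (median 0.43), JEKO-1 and Z138 alone gave 2, and leaving out the JEKO-1 CON library, Z138 CON replicate 1 or Z138 CON replicate 2 gave 4, 6 and 5. In MINO-P and MINO-VR every CON library belongs to the library series named HK and every IBR library to the series named MCL, so within those lines treatment and library series cannot be told apart. Without the 5 libraries that had the fewest genes between 0 and 1 CPM, 13 members were called, all higher. The shares of all genes called in these refits, and in those with a covariate, are not given here. The counts are therefore not read as particular to the members.

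Within Z138, the line with 2 IBR and 2 CON libraries of 1 series, 0 of 55 tested members were called by limma, as were 0% of 14120 genes, with 19 members at an unadjusted p under 0.05. The fold change was above 0 in 52 of the 55, with a median of 1.16 against 0.042 for all genes, and H4C8 had the largest change (3.04, limma adjusted p = 0.11). With the name suffix (plain or a) as a block, an alternative added after the data were seen, 4 of 55 were called, all higher. The share of all genes called in that fit is not given here, so the count is not read as particular to the members.

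BTZ against CON asks the same of BTZ. Of 62 members 1 fell and 0 rose, where 18.6% of all tested genes were called, 4.87% higher and 13.8% lower. That gene was H1-2, with 35.1 CPM in the MINO-P CON library, 109 in MINO-VR, 44.3 in JEKO-1, and 91.3 and 15.7 in Z138. The BTZ libraries had 4.38 CPM in MINO-P, 7.83 in MINO-VR, 21.0015, 26.2 and 2.14 in JEKO-1 and 57.0 in Z138. BTZ was lower than CON in both MINO lines and in JEKO-1, whereas the Z138 BTZ library lay between the 2 Z138 CON libraries. The log2 fold change was -1.92 (SE 0.57, limma adjusted p = 0.013), and H1-2 was not called in 4 of 30 alternatives. Which members were called changed with the lines used, and the calls are too few to give a direction for the members as a set. The share of all genes called in the fits on fewer lines is not given here. In JEKO-1 and Z138 alone 2 members were called, both higher, H4C8 (2.19, limma adjusted p = 0.014) and H4C3 (2.95, limma adjusted p = 0.030), and without MINO-VR also 2, both higher, H4C8 (1.49) and H2BC12 (1.15), while H1-2 was not called in either. With Chromosome M kept as deposited, 4 members were lower, and the median of all genes moved from -0.17 to -0.42. With the Chromosome M share as a covariate 10 members fell, and with the short RNA level 8 fell.

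The other leading members had fold changes of -0.24 for H2AC6 (limma adjusted p = 0.73), 0.54 for H2BC12 (0.33), 0.19 for H3C6 (0.81) and 1.11 for H4C8 (0.085). H4C8 was at 0.814 and 2.37 CPM in the MINO-P and MINO-VR BTZ libraries and at 14.7 to 20.1 CPM in the Z138 and JEKO-1 ones, so the lines differed. The members' median of -0.079 was near that of all genes, -0.17. In the same contrast 22 of 24 DNA replication genes fell, led by TYMS (-3.18), LIG1 (-3.01) and CDT1 (-2.82). Of the 12 replication-independent histone genes 8 fell, among them CENPA, the centromeric H3 (-2.70), H1-10 (-2.21) and H2AJ (-1.69). SLBP had -0.29 and NPAT -0.20, neither called, and 6 of 7 histone chaperones fell, led by ASF1B (-2.78). The short RNAs 7SK, SNORD3A and RN7SK rose by 4.90, 5.16 and 4.10.

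BTZ against IBR sets the 2 agents side by side. It shares its libraries with the 2 comparisons above, which share the CON libraries. Of 62 members 14 were lower with BTZ and 0 higher, where 18.4% of all tested genes were called, 4.89% higher and 13.5% lower. The share of members that were lower was 22.6%, with a median log2 fold change of -0.81 against -0.15 for all genes. H2AC6 was at 2.94 CPM in the MINO-P BTZ library, 9.01 in MINO-VR, 42.9, 39.5 and 33.0 in JEKO-1 and 41.1 in Z138, all below the lowest IBR library at 49.6 CPM. Its log2 fold change was -1.41 (SE 0.36, limma adjusted p = 0.0048).

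H2BC4 had 0.247 CPM in MINO-P, 0.712 in MINO-VR, 3.43, 0.557 and 0 in JEKO-1 and 1.89 in Z138 with BTZ, and its log2 fold change against IBR was -1.92 (SE 0.38, limma adjusted p = 0.00044). H3C3 was at 0 in 5 of the 6 BTZ libraries and at 0.0626 CPM in the MINO-P one, where 1 read is worth 0.0591 CPM before Chromosome M was left out, and ran from 0.233 to 5.14 CPM with IBR (median 3.02). H3C8 had 0.557 CPM in 1 JEKO-1 BTZ library and 0 in the other 5, and 0 to 5.32 CPM with IBR. H1-4, a linker histone, had 0.273 ± 0.405 CPM (SD, n = 6) with BTZ and 3.25 ± 2.87 CPM (SD, n = 11) with IBR, a log2 fold change of -2.19 (limma adjusted p = 0.00098). H3C13 had 2.02 ± 2.56 CPM (SD, n = 6) and 4.41 ± 2.61 CPM (SD, n = 11), a log2 fold change of -1.53 (limma adjusted p = 0.022).

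By contrast H2BC12, at 96.0 ± 57.8 CPM (SD, n = 6) with BTZ and 145 ± 61.0 CPM (SD, n = 11) with IBR, had a fold change of -0.13 (limma adjusted p = 0.82). H4C8 (-0.60), H3C6 (-0.76) and H1-2 (-1.19) were not called. Of 24 DNA replication genes 5 were lower with BTZ and 0 higher, and of 13 short RNAs tested 0 were called. In MINO-P and MINO-VR all BTZ libraries belong to the HK series and all IBR libraries to MCL. JEKO-1 and Z138 alone gave 2 called members, both lower, and the share of all genes called in that fit is not given here. With Chromosome M kept 32 were lower. The median of all genes then moved from -0.15 to -0.41, and 4256 genes were called against 3167, so the 32 are not read as particular to the members.

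**Figure D4:**
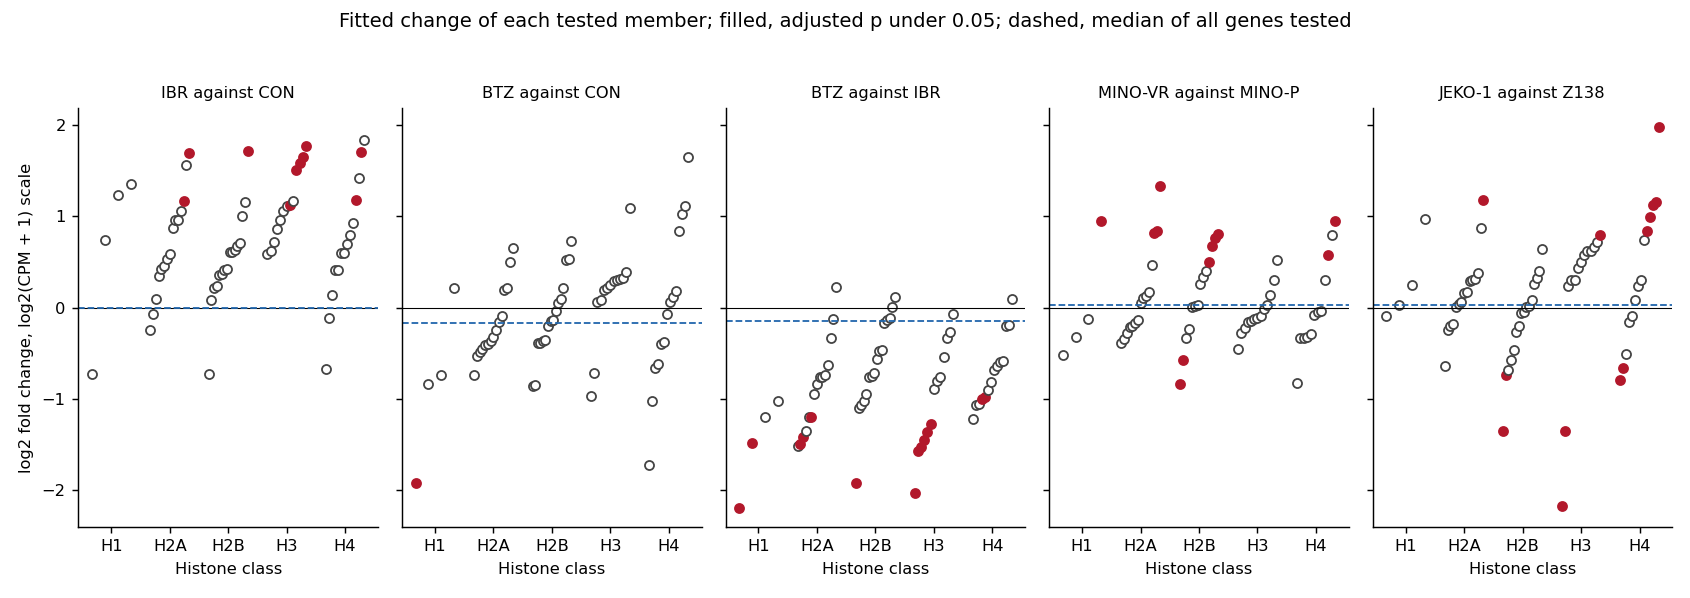
Fitted log2 fold change of every tested member by histone class in 5 comparisons. Filled points passed an adjusted p of 0.05 and the dashed line is the median of all genes tested. IBR against CON holds 10 filled points above 0, BTZ against IBR 14 below 0.

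YM155, CLF and S63845 alone gave no called member against CON. With YM155, 0 of 62 members were called by limma (2 at an unadjusted p under 0.05, 2 called with array weights), where 1.15% of all tested genes were called, and the member median was -0.11. With CLF, 0 of 62 were called and 0 had an unadjusted p under 0.05, with 0% of all genes called by limma and a median of -0.13. With S63845, 0 of 62 were called by limma, 1 at an unadjusted p under 0.05, with 0% of all genes called and a median of 0.095. The summed level was 139 to 371 CPM with YM155, 120 to 374 with CLF and 183 to 502 with S63845, ranges that overlap that of CON (114 to 446 CPM). In MINO-P and MINO-VR the CLF library was lower than the CON library, at 120 against 218 CPM and 230 against 446.

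The combinations gave no called member either. IBR_CLF against IBR gave 0 of 62 called by limma, with 0% of all genes and 3 members at an unadjusted p under 0.05. BTZ_CLF against BTZ gave 0 of 62, with 0.0698% of all genes and 4 members at an unadjusted p under 0.05. BTZ_YM155 gave 0 of 62 against BTZ (0.477% of all genes, 5 members at an unadjusted p under 0.05) and 0 of 62 against YM155 (0.552%, 1 member). IBR_YM155 against IBR gave 0 of 62 (0% of all genes, 5 members at an unadjusted p under 0.05), with a member median of -0.34. The summed level was 274 CPM in the MINO-P IBR_YM155 library against 664 to 753 in the 3 MINO-P IBR libraries, and 479 CPM against 656 and 696 in Z138. The BTZ_YM155 libraries lay the other way, at 265 CPM against 66.6 with BTZ in MINO-P and 296 against 83.2 in MINO-VR. In both lines BTZ_YM155 belongs to the MCL series and BTZ to the HK series, so the added agent and the series cannot be told apart. These groups hold 2 to 4 libraries except IBR_CLF with 8, and a p that misses the threshold does not show that the combinations act alike.

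The effect of CLF on top of IBR differed between the lines. In JEKO-1 the summed member level was 339 to 432 CPM with IBR and 1096 and 1186 CPM with IBR_CLF. In MINO-P it was 664 to 753 and then 452 and 506 CPM, in MINO-VR 1027 to 1123 and then 776 and 808 CPM, and in Z138 656 and 696 and then 334 and 772 CPM. A test of the difference between lines, added after these values were seen, called 6 of 62 members at an adjusted p under 0.05 (limma F-test of the interaction over 19 libraries), where 3.22% of all tested genes were called. With the near-repeat libraries averaged, 0 members and 0 of all genes were called, so the calls did not hold in that fit. It also has fewer libraries, and why the calls were lost was not tested. The JEKO-1 IBR_CLF libraries also had Chromosome M shares of 59.1% and 60.7% against 13.5% to 20.9% with IBR, and short RNA levels of 38569 and 56121 CPM against 3112 to 28619 CPM, and their part in the result was not tested.

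MINO-VR against MINO-P compares the 2 MINO lines over the 9 treatments both received. H2AC6, H1-2 and H2BC12 were higher in MINO-VR. Of 58 tested members 10 were higher and 2 lower, where 23.5% of all tested genes were called, 14.2% higher and 9.31% lower. The share of members called was 20.7%, below that of all genes, and the member median was -0.043 against 0.028 for all genes. Of the 6 members on the polyadenylated list, chosen with earlier results known, 5 were higher: H2AC6 (1.33), H1-2 (0.95), H2BC12 (0.81), H2BC5 (0.67) and H2BC21 (0.50). H2BC4 had 0.41 (limma adjusted p = 0.12). Of the 19 members with an annotated longer form, 17 were tested, 6 were higher and 1, H2BC9, lower.

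H2AC6 was higher in every MINO-VR library than in every MINO-P library of the same treatment in 9 of 9 treatments, with 106 ± 87.9 CPM (SD, n = 12) and 45.3 ± 41.9 CPM (SD, n = 13), where the SD spans treatments (limma adjusted p = 1.2e-06, SE 0.15). H1-2 was higher in 9 of 9 treatments, with 109 CPM in MINO-VR CON against 35.1 in MINO-P CON, and 49.7 to 99.2 CPM against 33.7 to 39.1 CPM with IBR (limma adjusted p = 2.8e-05). H2BC12 was higher in 8 of 9 treatments, the exception being BTZ at 25.4 against 25.9 CPM. H2AC6, H1-2 and H2BC12 were called in 38 of 38 alternatives each. H2BC9 was lower, at 1.32 ± 0.994 CPM (SD, n = 12) against 3.94 ± 3.91 CPM (SD, n = 13), with a log2 fold change of -0.84 (limma adjusted p = 0.014), in 6 of 9 treatments with no overlap. H2BC3 was lower in 8 of 9 treatments. In most of these treatments each line has 1 library, so the order is often that of 1 library against 1. How often such an order holds among all genes was not counted, so it is not read as a trait of the members.

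The head-to-head pair H2AC11 and H2BC11 was higher in MINO-VR, by 0.81 and 0.77. H4C8 was higher by 0.58 (limma adjusted p = 0.043) and not called in 19 of 38 alternatives. H2AC19 (0.84) and H4C14 (0.95) are near-identical copies of other members, and H4C14 was not called in 24 of 38 alternatives. H3C6 had 0.53 (limma adjusted p = 0.052). Of 24 DNA replication genes 1 was higher and 3 lower, and of the 12 replication-independent histone genes 0 were higher and 1 lower. Of the 14 genes of histone mRNA synthesis and 3′ end processing 4 were lower, namely ZNF473 (-0.71), which binds the U7 particle, the 3′ processing factors SYMPK (-0.60) and CPSF3 (-0.39) and the cap-binding subunit NCBP2 (-0.59), and 1 was higher, the cleavage factor CSTF2 (0.33). Of 11 short RNAs tested 3 were lower in MINO-VR. With the near-repeat libraries averaged, 7 members were called, 5 higher and 2 lower.

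**Figure D5:**
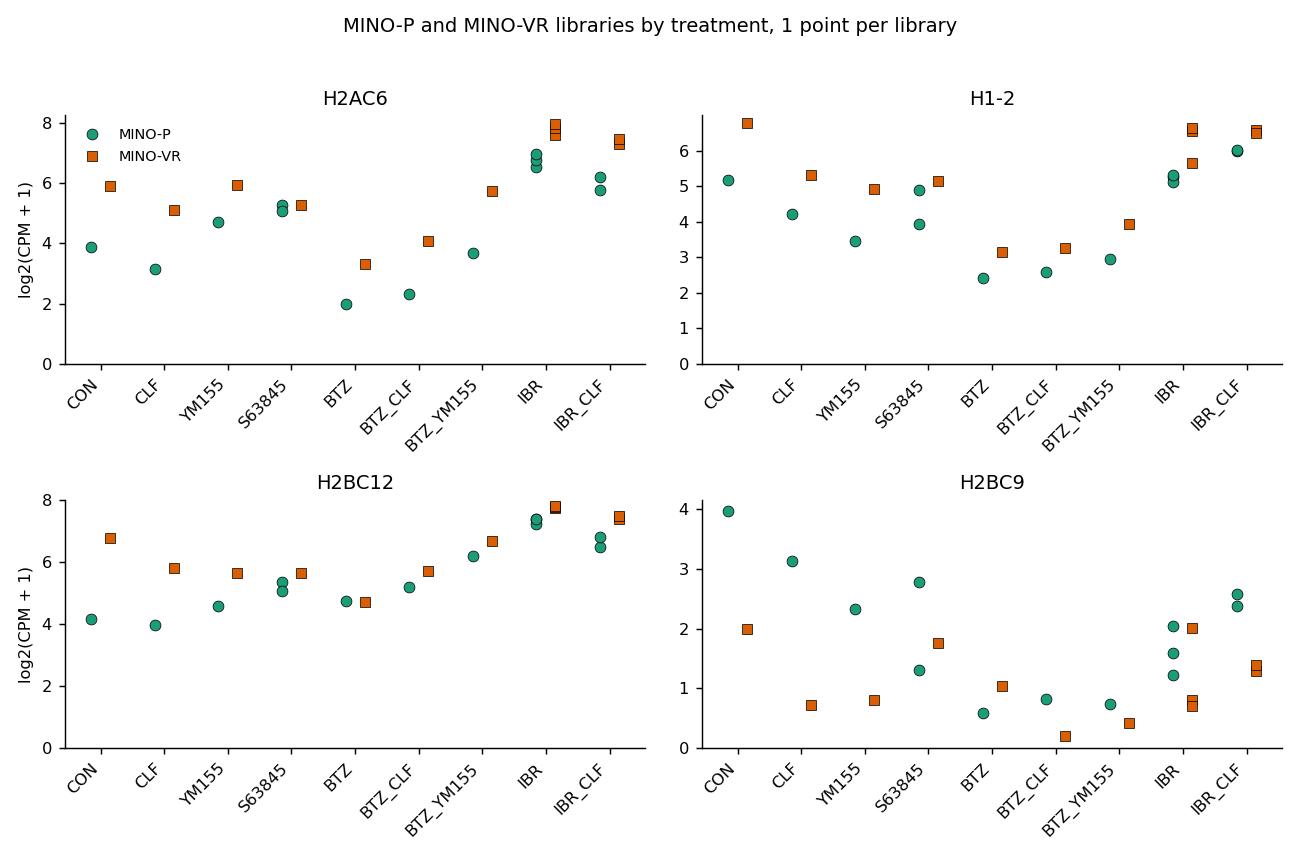
log2(CPM + 1) of H2AC6, H1-2, H2BC12 and H2BC9 in MINO-P and MINO-VR for the 9 treatments given to both, 1 point per library. H2AC6 and H1-2 are higher in MINO-VR in 9 of 9 treatments, and H2BC9 is lower without overlap in 6 of 9.

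JEKO-1 against Z138 was fitted over the treatments given to both lines. Single H3 and H4 genes differed in opposite directions. Of 62 members 7 were higher in JEKO-1 and 6 lower, where 47.8% of all tested genes were called, 24.7% higher and 23.1% lower, so the members' share of 20.97% was below that of all genes. With Chromosome M kept as deposited the split was 5 higher and 10 lower. The median of all genes then moved from 0.028 to -0.29, with 7736 genes called against 7775. With libraries over 40% Chromosome M left out the split was 2 and 10, and with the short RNA level as a covariate 0 and 9. The shares of all genes called in those refits are not given here, so these splits are not read as particular to the members.

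H3C6, the most abundant H3 gene per kilobase of shortest transcript though not of longest, was lower in JEKO-1. It had 0 to 6.72 CPM (median 1.38, n = 13) against 2.60 to 29.4 CPM in Z138 (median 10.6, n = 12). The log2 fold change was -2.17 (SE 0.34, limma adjusted p = 1.9e-05), called in 38 of 38 alternatives. H2BC6 was lower by 1.35 on the log2 scale, with 0.957 ± 2.66 CPM (SD, n = 13) against 3.31 ± 2.93 CPM (SD, n = 12), called in 37 of 37. H3C4, a near-identical copy, had -1.35. The low values of H2BC6 were whole reads in only 40% of cases. H4C3 was higher, with 0.176 to 59.2 CPM (median 13.1, n = 13) against 0 to 10.2 CPM (median 0.615, n = 12), a log2 fold change of 1.98 (limma adjusted p = 0.00075). H2AC4 had 4.93 ± 7.46 CPM (SD, n = 13) against 0.487 ± 0.955 CPM (SD, n = 12), a log2 fold change of 1.18 (limma adjusted p = 0.019). H4C3 and H2AC4 reversed when the short RNA level was a covariate, at -0.37 and -1.01.

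Of the 6 members on the polyadenylated list 1, H2BC5, was called (-0.74). H2AC6 had 0.012, H2BC12 -0.054, H1-2 -0.086 and, outside the list, H4C8 -0.51 (limma adjusted p = 0.15). All 11 short RNAs called of 13 tested were higher in JEKO-1.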

How the data were processed

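The deposited values are log2(CPM + 1) per gene, per the values themselves, which sum to the CPM total in each library once the log2 is undone. The submitters' processing notes name Partek and the build hg38; the aligner, the counter, the annotation and the use of strand are not given in the sources used here. The log2 was undone, 15 Chromosome M rows and 1 row without a gene name (at most 0.00077% of a library) were left out, and the rest was rescaled to that total. Depth was recovered from the commonest low values; 71.5% to 88.5% of low values came out whole (tolerance 0.02 reads), too few for a count model. Values were fitted with limma 3.58.1 in R 4.3.3 (trend, genes at 1 CPM or more in 2 or more libraries) over 56 libraries, the model holding treatment, line and a term for library series (HK or MCL, from the library names); MINO-VR against MINO-P, JEKO-1 against Z138 and Z138 alone were fitted on their own libraries. Because 1 was added before the log2, fold changes of low genes come out smaller than they are. Adjusted p-values are Benjamini-Hochberg over all genes tested. Some library names in the MCL series end in a; the labels do not say what this marks, and those of JEKO-1 and both MINO lines form 8 pairs with a plain library of the same line and treatment (near-repeat libraries, averaged in an alternative). The 5 such Z138 pairs, which include both CON libraries, were left separate there and averaged only where every line and treatment was. Text values are those of the up to 5 called members with the largest change per comparison and of the most abundant member of each class per kb; other lists by the same kind of rule, with SLBP, NPAT and H2AX in any case and 1 gene of these lists not reported here; H2BC3, H2BC15 and other members named beyond these were picked after their values were seen. The members and lists were chosen with earlier results of these data known. On simulated data of 16096 genes for IBR against CON, 39% of changes of 1 and 89% of changes of 2 (log2) were recovered. For BTZ against CON these were 33% and 86%, and for BTZ against IBR 38% and 81%. Changes were placed only in genes with a mean log2(CPM + 1) above 1, with independent normal noise. The percentages therefore do not describe members below that mean. Sequences are from GENCODE release 29 transcripts and the RefSeq promoter table (GRCh38.p14).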

Additional observations from a re-analysis of the deposited data

Results flagged for a closer look

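For 6 members the effect of CLF on top of IBR differed across the 4 cell lines, by a limma F-test of the interaction over 19 libraries that was added after the values were seen. The adjusted p was 0.00456 for H1-2, 0.00569 for H2BC8, 0.0081 for H2AC16, 0.02 for H2AC8, 0.0201 for H2BC11 and 0.0441 for H2AC19. H1-2 was at 24.3, 14.4 and 9.70 CPM in the 3 JEKO-1 IBR libraries and at 160 and 142 CPM in the 2 JEKO-1 IBR_CLF libraries, a log2 difference of 3.24 (SE 0.39), against 0.77 in MINO-P, 0.25 in MINO-VR and -0.57 in Z138. H2BC8 had 2.71 in JEKO-1, against 0.80, -0.44 and -0.02 in MINO-P, MINO-VR and Z138. H2AC8 was at 1.18 to 4.04 CPM with IBR and at 22.0 and 19.8 CPM with IBR_CLF in JEKO-1. H2AC16 (2.10), H2BC11 (1.73) and H2AC19 (2.19, a near-identical copy) were also higher in JEKO-1. Leaving out JEKO-1 IBR_CLF replicate 1 or 2 left 0 and 2 of these calls, leaving out Z138 IBR replicate 2 or Z138 IBR_CLF replicate 2 gave 13 and 10, and averaging the near-repeat libraries left 0.

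The MINO-P IBR_S63845 library, the only one of its treatment and in no comparison, had a summed member level of 365.6 CPM against 218 CPM in the MINO-P CON library, with a Chromosome M share of 29.04%.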

How the results depend on the processing

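Counts of called members depended on the settings, and the share of all genes called under each setting is not given here. In BTZ against CON the few calls were lower in the main fit and higher in 2 fits on fewer lines. They are too few to give a direction for the members. For IBR against CON (10), the count was 6 with a pseudocount of 0.1, 2 at a mean of at least 5 CPM, 22 without the library series term, 6 with line and treatment averaged, 2 in JEKO-1 and Z138 alone, 5 without MINO-P, 6 without MINO-VR, 0 without Z138, 16 without libraries over 40% Chromosome M, 31 with array weights, 4 with the Chromosome M share and 0 with the short RNA level as covariate, and 4 to 13 with 1 library left out. For BTZ against CON (1), it was 4 as deposited, 2 with a pseudocount of 0.1, 2 averaged, 2 in JEKO-1 and Z138 alone (both higher), 0 without MINO-P, 2 without MINO-VR (both higher), 3 without JEKO-1, 2 without libraries over 40% Chromosome M, 9 with array weights, 10 with the Chromosome M share, 8 with the short RNA level, 2 without the 5 libraries with few low values, and 1 to 3 with 1 library left out, 3 being without MINO-VR CON replicate 1. For BTZ against IBR (14), it was 32 as deposited, 1 at a mean of at least 5 CPM, 26 without the series term, 7 with near-repeat libraries averaged, 9 with line and treatment averaged, 2 in JEKO-1 and Z138 alone, 9 without MINO-P, 7 without MINO-VR, 23 without libraries over 40% Chromosome M, 38 with array weights, 23 with the Chromosome M share, and 12 to 21 with 1 library left out. Counts of 0 became 1 (averaged) and 2 (array weights) for YM155 against CON. They became 1 (array weights) for IBR_CLF against IBR and 1 (without Z138) for BTZ_YM155 against BTZ. For Z138 alone, leaving out 1 library leaves a lone IBR or CON library, so those counts are not given. MINO-VR against MINO-P (12) gave 7 with near-repeat libraries averaged and 9 to 14 with 1 left out. JEKO-1 against Z138 (13) gave 4 at a mean of at least 5 CPM, 7 with the Chromosome M share and 9 to 16 with 1 left out. The interaction (6) gave 3 with a pseudocount of 0.1, 3 at a mean of at least 5 CPM, 0 with near-repeat libraries averaged and 0 to 13 with 1 left out. Of the named members' values under alternatives, 789 kept direction and call, 108 kept direction only, and 2 reversed: with the short RNA level as covariate, H4C3 had -0.37 and H2AC4 -1.01 in JEKO-1 against Z138. The causes were not tested. The short RNA covariate, the suffix block within Z138, the set without 5 libraries and the interaction were chosen after seeing the data. Depth limits low members: 3 reads were worth up to 2.18 CPM. The labels give no replicate numbers, but some library names differ by a final a, whose meaning is not given. With that suffix as a block, IBR against CON gave 9, BTZ against CON 1, BTZ against IBR 14, MINO-VR against MINO-P 11, JEKO-1 against Z138 12 and Z138 alone 4.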
